A study of Mus musculus with 7 samples.

Results

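The genes described here encode the contractile machinery of vascular smooth muscle, together with the coactivator that drives their transcription. They are *Acta2* and *Actg2* (smooth muscle actins), *Myh11* (smooth muscle myosin heavy chain), *Myl9* (regulatory light chain), *Mylk* (light chain kinase), *Tagln* (transgelin), *Cnn1* (calponin), *Lmod1* (leiomodin), *Smtn* (smoothelin) and *Myocd* (myocardin). The members were listed by name and found by matching Ensembl identifiers to mouse symbols. All 10 were present once each among the 20927 genes of the table, and all 10 reached 10 counts in 3 or more libraries, the rule that set the 13894 genes tested.

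RNA was sequenced from left ventricles of 3 wild-type (WT) mice, numbered 1, 3 and 4, and of 4 mice homozygous for the titin missense allele A178D, numbered 1 to 4, with 1 library per heart. Both groups carry the strain label C57BL/6J and received no treatment named in the labels; the age and sex of these mice are not given in the sources used here. The allele was made by genome editing in embryonic stem cells of the C57BL/6N substrain and then bred onto C57BL/6J. The comparison asks which transcripts differ in hearts that carry the changed titin. Library totals ran from 33080675 counts (A178D replicate 4) to 54245530 counts (WT replicate 3). Levels are given as normalised counts, that is, counts per 1000000 counts (CPM) at library sizes scaled by TMM, and a gene was called when the Benjamini-Hochberg adjusted p of edgeR's quasi-likelihood test, over all genes tested, was under 0.05. *Ttn* itself, named outside the rule for named genes after its values were seen, was at 7245, 6247 and 6486 CPM in WT and 5361, 6173, 6490 and 4087 CPM in A178D hearts. The genotypes overlapped, *Ttn* was not called (log2 fold change -0.27, adjusted p = 0.287; -0.15 without A178D replicate 4, its lowest heart), and its count does not tell the alleles apart.

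Smooth muscle contracts when a rise in calcium activates the light chain kinase, which phosphorylates the regulatory light chain and lets smooth muscle myosin pull on filaments of smooth muscle actin. Calponin, transgelin, leiomodin and smoothelin bind these actin filaments. Myocardin binds serum response factor (SRF) at CArG boxes in the promoters of most of these genes, and in the heart it is made by cardiomyocytes as well as by smooth muscle of the coronary vessels.

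Of the 10 members, 7 were called lower in A178D hearts and 0 were called higher, where 1.31% of all genes tested were called lower and 1.04% were called higher. The 7 were *Acta2*, *Myh11*, *Myl9*, *Mylk*, *Tagln*, *Cnn1* and *Lmod1*. The median log2 fold change of the 10 members was -0.61, beside 0.00 for all genes tested. At an unadjusted p under 0.05, 9 members were lower and 0 were higher, where 8.81% of all genes tested were lower and 7.93% higher by that measure. DESeq2 also called 7 members lower and 0 higher, where it called 2.73% of all genes lower and 2.2% higher. In 7 members the highest A178D heart was under the lowest WT heart, a pattern seen in 8.52% of all genes tested, while 7.61% showed the opposite pattern. The members were chosen with earlier results of these data known, so the shares of all genes are a backdrop and not a test of the list. These are bulk samples, so fewer smooth muscle cells and less RNA per cell cannot be told apart.

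The actin of the thin filament was represented by both smooth muscle isoforms. *Acta2* (ENSMUSG00000035783, GRCm38 chr19:34241090-34255590, minus strand), the vascular isoform, stood at 177, 213 and 183 CPM in WT replicates 1, 3 and 4, and at 108, 127, 134 and 137 CPM in A178D replicates 1 to 4. Every A178D heart was below every WT heart, with WT replicate 3 highest and A178D replicate 1 lowest. *Acta2* fell by 0.59 on the log2 scale (SE 0.091, adjusted p = 0.00587), from 191 ± 19.3 CPM (SD, n = 3) to 126 ± 13.1 CPM (SD, n = 4). *Actg2* (chr6:83512905-83536265, minus strand), the enteric isoform, was the least abundant member, at 2.21, 1.94 and 0.911 CPM in WT hearts and 0.520, 1.25, 0.796 and 0.741 CPM in A178D hearts. A178D replicate 2 was above WT replicate 4, so the genotypes overlapped. Its log2 fold change was -1.02 (SE 0.36, adjusted p = 0.167), resting on 21 to 116 counts per library.

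The motor of the thick filament is the product of *Myh11* (ENSMUSG00000018830, chr16:14194535-14291372, minus strand). Its level was 168, 134 and 138 CPM in WT replicates 1, 3 and 4, and 71.8, 103, 108 and 86.0 CPM in A178D replicates 1 to 4. The genotypes did not overlap, and WT replicate 1 and A178D replicate 1 were the extremes. *Myh11* fell by 0.67 on the log2 scale (SE 0.12, adjusted p = 0.0146). *Myl9* (ENSMUSG00000067818, chr2:156775420-156781658, plus strand), whose product is the light chain that phosphorylation switches on, was at 66.5, 52.7 and 56.6 CPM in WT and at 31.8, 42.7, 45.7 and 46.5 CPM in A178D hearts. Again no A178D heart reached the lowest WT heart, and A178D replicate 1 was the lowest. *Myl9* fell by 0.49 (SE 0.12, adjusted p = 0.0494), which is just inside the threshold. *Mylk* (ENSMUSG00000022836, chr16:34745210-35002420, plus strand), the kinase of that light chain, gave 52.3, 41.9 and 43.5 CPM in WT and 30.1, 33.4, 38.5 and 28.9 CPM in A178D hearts. Here A178D replicates 4 and 1 were lowest, and A178D replicate 3 came nearest to the WT hearts. *Mylk* fell by 0.49 on the log2 scale (SE 0.11, adjusted p = 0.0317).

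Among the actin-binding proteins, *Tagln* (ENSMUSG00000032085, chr9:45929619-45936058, minus strand), which crosslinks and stabilises actin filaments, was at 78.7, 62.8 and 67.7 CPM in WT replicates 1, 3 and 4. In A178D replicates 1 to 4 it was at 37.6, 49.4, 49.2 and 44.5 CPM. All A178D hearts were below all WT hearts. *Tagln* fell by 0.62 on the log2 scale (SE 0.10, adjusted p = 0.0077). *Pcsk7* overlaps *Tagln* on the opposite strand. The libraries were stranded, but the counting program is not given, and whether reads of *Pcsk7* add to *Tagln* was not tested.

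*Cnn1* (ENSMUSG00000001349, chr9:22099216-22109630, plus strand), which restrains myosin on the actin filament, stood at 7.46, 4.84 and 5.81 CPM in WT and at 2.58, 3.72, 3.79 and 3.58 CPM in A178D hearts. Its WT hearts were widely spread, yet the lowest of them was above every A178D heart. *Cnn1* fell by 0.82 on the log2 scale (SE 0.18, adjusted p = 0.0337), the largest fall among the called members with all hearts in the fit. Without WT replicate 1 its log2 fold change was -0.63, beside -0.64 for *Acta2*. *Lmod1* (ENSMUSG00000048096, chr1:135324807-135368065, plus strand), which nucleates actin filaments, was at 11.03, 8.55 and 10.04 CPM in WT and at 4.26, 7.06, 6.89 and 6.12 CPM in A178D hearts. The genotypes did not overlap, and A178D replicate 1 was again the lowest. *Lmod1* fell by 0.70 (SE 0.16, adjusted p = 0.0427).

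*Smtn* (ENSMUSG00000020439, chr11:3517523-3540612, minus strand), a marker of the contractile state of smooth muscle, did not pass the test. Its level was 213, 236 and 210 CPM in WT and 174, 187, 190 and 213 CPM in A178D hearts. A178D replicate 4 lay among the WT hearts, and the other A178D hearts were below them. The log2 fold change was -0.20 (SE 0.078, adjusted p = 0.212).

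*Myocd* (ENSMUSG00000020542, chr11:65176561-65269989, minus strand), the coactivator, was at 55.4, 59.6 and 59.4 CPM in WT hearts and at 57.5, 62.7, 60.5 and 48.8 CPM in A178D hearts. The highest and the lowest value both belonged to A178D hearts, and the genotypes overlapped. Its log2 fold change was -0.02 (SE 0.087, adjusted p = 0.952). The value was above 0 with offsets for transcript length and GC content, at 0.01, and without A178D replicate 4, at 0.05, and it ran from -0.06 to 0.05 over the 7 fits that each left out 1 heart.

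**Figure D1:**
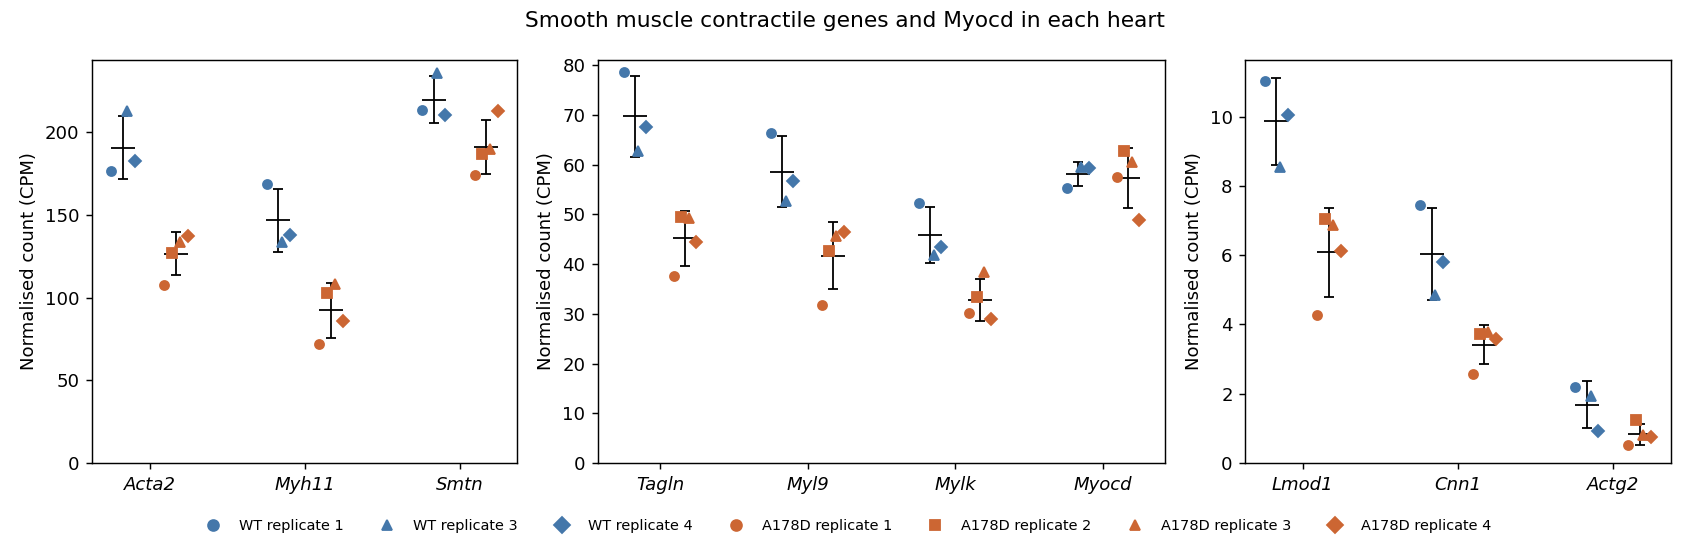
Normalised count (CPM, linear axes from 0) of the 10 genes in each of the 3 WT (blue) and 4 A178D (orange) hearts, with shapes for replicate numbers and black bars for mean and SD. In 7 genes every A178D heart is below every WT heart, while *Smtn*, *Myocd* and *Actg2* overlap.

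Levels can be compared between genes only per length, so CPM was divided by the kilobases of annotated exon. On that scale *Acta2* was highest in WT hearts, at 86.8 ± 8.78 CPM per kb (SD, n = 3), followed by *Myl9* at 50.4 ± 6.11 and *Smtn* at 50.2 ± 3.19. *Myl9* and *Smtn* differed by less than their spread. *Tagln* (35.1 ± 4.08), *Myh11* (19.3 ± 2.50) and *Myocd* (9.04 ± 0.370) came next. *Mylk* (4.08 ± 0.498), *Lmod1* (2.50 ± 0.317), *Cnn1* (2.21 ± 0.484) and *Actg2* (1.08 ± 0.440) were at the low end, where *Lmod1* and *Cnn1* did not differ beyond their spread.

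In A178D hearts *Acta2* was still highest, at 57.6 ± 5.95 CPM per kb (SD, n = 4), but *Smtn* (43.6 ± 3.69) now stood above *Myl9* (35.9 ± 5.84). *Myocd* was at 8.93 ± 0.948 CPM per kb. The order of the other members was as in WT. With the longest transcript as the length, *Smtn* was already above *Myl9* in WT hearts, at 64.9 and 51.9 CPM per kb, and *Cnn1* above *Lmod1*, at 2.54 and 2.50 CPM per kb.

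Some hearts often held the same place within their genotype over the members. Within A178D, replicate 1 was the lowest heart in 8 of the 10 members. The highest place was split, with replicates 2, 3 and 4 holding it in 4, 3 and 3 members. Within WT, replicate 1 was the highest heart in 7 members and the lowest in 2. The summed CPM of the members was 832, 814 and 775 in WT replicates 1, 3 and 4, and 518, 617, 637 and 615 in A178D replicates 1 to 4. The mean log2 deviation of the members from their average over all hearts was -0.53 in A178D replicate 1 and between -0.24 and -0.09 in the other A178D hearts. A178D replicate 1 was thus the lowest heart, and the other 3 A178D hearts were also below the WT hearts, which were between 0.21 and 0.48.

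The number of members called depended on the hearts in the fit. With WT replicate 1, 3 or 4 left out, it was 3, 2 and 2. Over all genes, 238, 31 and 42 were called lower in those fits, beside 182 with every heart. With A178D replicate 1, 2, 3 or 4 left out, the number of members was 3, 4, 4 and 6. Over all genes, 50, 115, 112 and 215 were then called lower. *Acta2* and *Tagln* were called in all 7 of these fits, and *Myh11* in 5, losing its call without WT replicate 3 or 4 (adjusted p up to 0.0547). *Mylk* was called only without A178D replicate 3 or 4, *Cnn1* and *Myl9* only without A178D replicate 4, and *Lmod1* only without A178D replicate 2. In the other fits their adjusted p reached 0.111 (*Mylk*), 0.109 (*Cnn1*), 0.133 (*Myl9*) and 0.142 (*Lmod1*).

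Libraries also differed in how their counts followed transcript length. The log2 deviation per doubling of length was 0.0805 in WT replicate 1 and -0.136 in A178D replicate 4, and between -0.0136 and 0.0253 in the other 5 libraries. With offsets for length and GC content in each library, 8 members were called lower, since *Smtn* was added. Leaving out both libraries together, a fit chosen after seeing the data, called 5 members, among them *Smtn* (adjusted p = 0.0293), while *Mylk* (adjusted p = 0.0672), *Cnn1* (adjusted p = 0.0792) and *Lmod1* (adjusted p = 0.0805) lost their calls.

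The members have close relatives that are not specific to smooth muscle, and these were compared on the same libraries. Of 24 such paralogues, 22 were tested. They include *Mrtfa* and *Mrtfb*, counted again among the regulators below. *Actc1* and *Myh6* are counted again among the cardiomyocyte markers, and *Acta1* among the skeletal fibre markers. Of the tested paralogues, both edgeR and DESeq2 called 1 lower and 1 higher. Over all genes, edgeR called 1.31% and 1.04% and DESeq2 2.73% and 2.2%. At an unadjusted p under 0.05, 3 were lower and 3 higher, beside 8.81% and 7.93% of all genes tested. These shares apply to the counts of every list below, and some genes, such as *Notch3* and *Nppa*, are counted in more than 1 list. The median log2 fold change of the paralogues was -0.09. Cytoplasmic *Actb* was at 400, 331 and 270 CPM in WT and 317, 366, 360 and 414 CPM in A178D hearts. Its genotypes overlapped, and its log2 fold change was 0.13 (adjusted p = 0.63). *Actg1*, the other cytoplasmic actin, had a log2 fold change of 0.09 (adjusted p = 0.771).

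The non-muscle myosin heavy chains *Myh9* and *Myh10* had log2 fold changes of -0.16 (adjusted p = 0.415) and 0.00 (adjusted p = 0.989). Neither was called, and in both the hearts of the genotypes overlapped. *Tagln2* (-0.13, adjusted p = 0.558), *Cnn2* (0.15, adjusted p = 0.562), *Cnn3* (-0.12, adjusted p = 0.485) and *Lmod2* (-0.11, adjusted p = 0.42), the cardiac leiomodin, did not pass either. The light chains *Myl12a* and *Myl12b* gave 0.13 (adjusted p = 0.41) and -0.24 (adjusted p = 0.21), and *Smtnl2* gave -0.35 (adjusted p = 0.178).

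The called paralogues were both striated muscle genes. *Acta1*, skeletal actin, rose by 2.64 on the log2 scale (SE 0.29, adjusted p = 0.000651), from 108 ± 64.6 to 671 ± 131 CPM. *Mylk4* fell by 0.39 (SE 0.090, adjusted p = 0.0394), a call kept in only 1 of the 7 fits that left out a heart (adjusted p up to 0.179), while the cardiac kinase *Mylk3* had a log2 fold change of -0.08 (adjusted p = 0.564). Cardiac actin *Actc1* was at 0.13 (adjusted p = 0.293).

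Ratios of a member to a paralogue within a heart need no library size. Of 13 such ratios of levels per kb, 10 had every A178D heart below every WT heart, 0 had every one above, and 3 overlapped. The 13 did not cover every pair. No ratio was formed to the called *Acta1* and *Mylk4*, or to some other tested paralogues, among them *Myh14*, *Mrtfa* and *Mrtfb*. The counts therefore describe the chosen pairs only. Some members enter several ratios. In each of the 10, the member alone already had every A178D heart below every WT heart, so these ratios are not separate results. The share over other pairs of genes was not computed. The *Acta2* level per kb divided by that of *Actb* was 0.539, 0.785 and 0.826 in WT replicates 1, 3 and 4, and 0.415, 0.424, 0.453 and 0.404 in A178D replicates 1 to 4. All A178D hearts were below all WT hearts. For *Myh11* over *Myh9* the ratio was 1.20, 0.968 and 1.29 in WT and 0.640, 0.864, 0.896 and 0.782 in A178D hearts, again without overlap. For *Tagln* over *Tagln2* it was 2.20, 1.49 and 2.15 in WT and 1.22, 1.53, 1.54 and 1.17 in A178D hearts, where WT replicate 3 lay within the A178D range. The other 2 that overlapped were *Myl9* over *Myl12b*, at 2.37 to 3.23 in WT and 1.90 to 2.64 in A178D hearts, and *Smtn* over *Smtnl2*, whose mean was higher in A178D hearts, at 9.66 ± 1.09 (SD, n = 4) beside 8.67 ± 1.04 (SD, n = 3). These ratios are a description and were not tested.

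**Figure D2:**
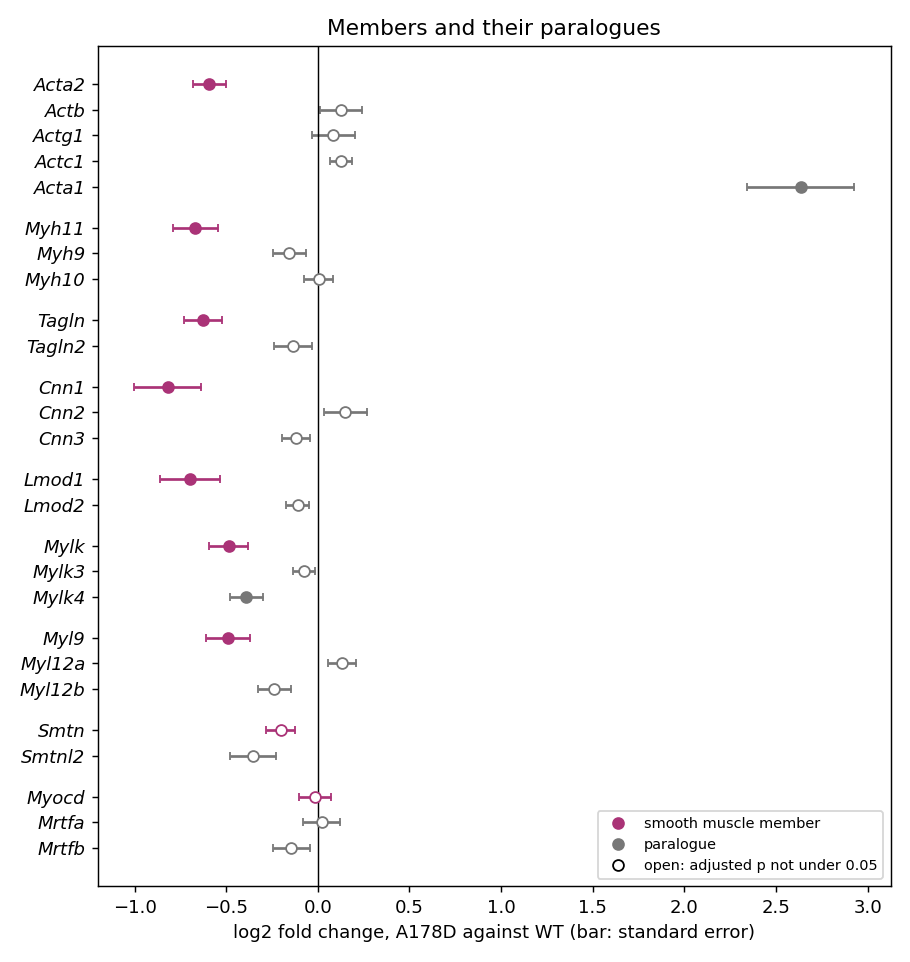
Log2 fold change of A178D against WT (horizontal axis) with its standard error, for 9 members (purple) and their paralogues (grey), where open points did not pass an adjusted p under 0.05. *Acta2* is at -0.59 and *Actb* at 0.13, *Myh11* at -0.67 and *Myh9* at -0.16, and *Acta1* stands apart at 2.64.

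Beyond the members, 30 other genes of the smooth muscle cytoskeleton were all tested, with 1 called lower, 1 called higher, 21 below 0 and a median of -0.12. By an unadjusted p under 0.05, 10 were lower and 1 was higher in edgeR, and DESeq2 called 6 lower and 1 higher. Every A178D heart was below every WT heart in 9 of the 30 and above in 2, where 8.52% and 7.61% of all genes tested had these patterns. *Flna*, filamin A, which crosslinks cortical actin, was at 315, 311 and 261 CPM in WT and 196, 241, 234 and 209 CPM in A178D hearts. No A178D heart reached the WT range, and *Flna* fell by 0.43 (SE 0.089, adjusted p = 0.023). *Hspb6*, a small heat shock protein of smooth and cardiac muscle, rose by 0.31 (SE 0.069, adjusted p = 0.0328), but was called in only 2 of the 7 fits that left out a heart (adjusted p up to 0.192). The 4 most abundant genes of this list, which cardiomyocytes also express, were *Tpm1* (0.02, adjusted p = 0.908), *Des* (0.08, adjusted p = 0.644), *Ldb3* (0.11, adjusted p = 0.376) and *Tns1* (-0.21, adjusted p = 0.134). None of these 4 passed.

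A further 4 were chosen after their values were seen. The LIM protein genes *Csrp2* and *Pdlim3* were at -0.42 (adjusted p = 0.0527) and -0.47 (adjusted p = 0.0654). *Itga8*, an integrin of smooth muscle, was at -0.56 (adjusted p = 0.0732), and its ligand *Npnt* at -0.93 (adjusted p = 0.103). None of these 4 passed in edgeR with all hearts. Of the 7 fits without a heart, *Pdlim3* was called in 2, *Csrp2* and *Itga8* in 1 each, and *Npnt* in 0.

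Genes that set contraction and relaxation numbered 30, all tested, with 2 called lower, 0 higher, 23 below 0 and a median of -0.13. At an unadjusted p under 0.05, 9 were lower and 1 was higher in edgeR, and DESeq2 called 6 lower and 0 higher. In 8 of the 30 every A178D heart was below every WT heart (8.52% of all genes tested), and in 0 above (7.61%). *Ednra*, the receptor through which endothelin constricts vessels, was at 42.7, 52.4 and 48.3 CPM in WT and 32.6, 34.3, 31.5 and 33.0 CPM in A178D hearts. The A178D hearts were close to each other and below the WT hearts, and *Ednra* fell by 0.54 (SE 0.083, adjusted p = 0.00587). *Rock1*, a kinase that keeps the light chain phosphorylated by inhibiting its phosphatase, was at 89.8, 93.4 and 98.1 CPM in WT and 71.8, 74.0, 76.1 and 61.6 CPM in A178D hearts. It fell by 0.40 (SE 0.080, adjusted p = 0.0194), again without overlap.

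Among the abundant genes of this list, 3 that were not called were the phosphatase subunit *Ppp1cb* (-0.04, adjusted p = 0.877), the calcium channel *Cacna1c* (-0.29, adjusted p = 0.0921) and *Rhoa* (-0.11, adjusted p = 0.423).

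Of 22 regulators of smooth muscle genes, 18 were tested, with 1 called lower, 0 higher, 14 below 0 and a median of -0.08. At an unadjusted p under 0.05, 4 were lower and 0 were higher, and DESeq2 called 3 lower and 0 higher. Over all genes tested, the shares were 8.81% and 7.93% by the first measure and 2.73% and 2.2% by DESeq2. In 3 of the 18 every A178D heart was below every WT heart (8.52% of all genes tested), and in 0 above (7.61%). *Srf*, the partner of myocardin, was at 126, 115 and 98.9 CPM in WT and 113, 114, 105 and 145 CPM in A178D hearts. Its genotypes overlapped, and its log2 fold change was 0.07 (SE 0.11, adjusted p = 0.806). The myocardin-related *Mrtfa* (0.02, adjusted p = 0.947) and *Mrtfb* (-0.14, adjusted p = 0.511) did not pass.

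*Gata6*, a transcription factor of vascular smooth muscle and of cardiomyocytes, was at 65.0, 65.2 and 70.4 CPM in WT and 45.1, 54.5, 51.6 and 51.3 CPM in A178D hearts. No A178D heart reached the WT range, and *Gata6* fell by 0.40 (SE 0.078, adjusted p = 0.0177). *Tead1*, which binds MCAT elements, had a log2 fold change of -0.01 (adjusted p = 0.958). *Mef2c* (-0.08, adjusted p = 0.667) and the receptor *Notch3* (-0.38, adjusted p = 0.127) were not called. Among the called genes of contraction control and regulation and *Flna*, *Ednra* lost its call without WT replicate 3 (adjusted p = 0.0504). *Flna*, *Rock1* and *Gata6* lost theirs without WT replicate 3 or A178D replicate 1, *Flna* also without WT replicate 1, and *Rock1* and *Gata6* also without WT replicate 4, with adjusted p up to 0.142, 0.101 and 0.0975.

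Markers of other cells of the vessel wall were also counted. Of 12 pericyte markers 0 were called, 11 were below 0 and the median was -0.21. At an unadjusted p under 0.05, 5 were lower and 0 higher in edgeR, limma-voom called 0, and DESeq2 called 3 lower. Their summed level was 1248, 1274 and 1208 CPM in WT and 1059, 1111, 1185 and 961 CPM in A178D hearts, so that every A178D heart was below every WT heart in the sum. Gene by gene, 1 of the 12 had that pattern, beside 8.52% of all genes tested, and 0 the opposite. The most abundant was *Abcc9* (-0.15, adjusted p = 0.513), which overlapped between the genotypes at 426 to 628 CPM of the sum, and none was at 0. *Rgs5* and *Pdgfrb*, chosen after their values were seen, were at -0.33 (adjusted p = 0.0653) and -0.33 (adjusted p = 0.0863). The part of pericytes in the lower smooth muscle values was not tested.

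Of 12 endothelial markers 1 was called lower and the median was -0.02, with a summed level of 1976, 1933 and 1898 CPM in WT and 1908, 1871, 1996 and 2055 CPM in A178D hearts. These sums overlapped, *Fabp4* was the most abundant gene, and the called gene was *Flt1*, a receptor for vascular endothelial growth factor, which fell by 0.35 (adjusted p = 0.02; called in 3 of the 7 fits without a heart). Of 12 arterial endothelial markers 1 was called lower, *Sox17*, which fell by 0.47 (adjusted p = 0.0317; called in 1 of those 7 fits, with adjusted p up to 0.15). Their median was -0.07, *Nrp1* was the most abundant gene, and the sums overlapped, at 434 to 525 CPM in WT and 452 to 492 CPM in A178D hearts. Counted at an unadjusted p under 0.05, 1 endothelial and 2 arterial markers were lower and 0 were higher, and DESeq2 called 1 lower in each list and 0 higher.

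Elastic fibre genes of the artery wall are laid down by smooth muscle and fibroblasts. Of 12, 1 was called higher and 0 lower, the median was 0.11, *Ltbp4* was the most abundant, and the sums were 1060 to 1262 CPM in WT and 1106 to 1209 CPM in A178D hearts. At an unadjusted p under 0.05, 0 were lower and 3 higher in edgeR, and DESeq2 called 0 lower and 2 higher. In 2 of the 12 every A178D heart was above every WT heart, and in 0 below, where 7.61% and 8.52% of all genes tested had these patterns. *Emilin1* rose by 0.48 (adjusted p = 0.0263; called in 3 of the 7 fits without a heart).

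Fibroblast markers had a median of 0.13, with 1 of 12 called higher, *Col3a1* (0.62, adjusted p = 0.0317), and summed levels of 2477 to 2937 CPM in WT and 2849 to 3054 CPM in A178D hearts, where *Gsn* was most abundant. Macrophage markers had a median of 0.25, with 2 of 12 called higher, *Cx3cr1* (1.23, adjusted p = 0.0065) and *Lyz2* (0.40, adjusted p = 0.034), the most abundant of them. Their sums were 344 to 448 CPM in WT and 437 to 495 CPM in A178D hearts. Both pairs of sums overlapped between the genotypes. Gene by gene, every A178D heart was above every WT heart in 4 fibroblast and 4 macrophage markers (7.61% of all genes tested). In 0 of either list was every one below (8.52%). At an unadjusted p under 0.05, 0 fibroblast markers were lower and 4 higher, and 1 macrophage marker was lower and 5 higher; DESeq2 called 2 and 4 higher, and 0 lower in either list. Over all genes tested 7.93% were higher by the first measure and 2.2% by the second. Cardiomyocyte markers had a median of 0.00, with 2 of 12 called higher, *Mybpc3* (0.30, adjusted p = 0.023) and *Nppa* (1.31, adjusted p = 0.0146), *Myh6* the most abundant, and sums that overlapped between the genotypes. By an unadjusted p under 0.05, 1 of them was lower and 4 higher, and DESeq2 called 0 lower and 2 higher. In 4 of these cardiomyocyte markers every A178D heart was above every WT heart, and in 1 below. Of the 7 fits without a heart, *Col3a1* and *Mybpc3* were called in 3, *Lyz2* in 2, *Nppa* in 4 and *Cx3cr1* in 6.

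Markers of tissue next to the left ventricle were also measured. Of 10 epicardial markers 3 were tested, edgeR and DESeq2 called 0, 0 had an unadjusted p under 0.05, *Bnc1* was at 0 in every library, and the sum was 6.55 to 8.04 CPM over all hearts. Of 10 atrial markers 7 were tested, *Bmp10* was at 0 in every library, and *Myl7* and *Sln* were too low to test. *Nppa*, the most abundant, was the called one, and the sum was 184 to 330 CPM in WT and 393 to 666 CPM in A178D hearts, most of it *Nppa*, at 109 to 249 and 322 to 588 CPM. Counted at an unadjusted p under 0.05, 2 atrial markers were lower and 2 higher, and DESeq2 called 1 lower and 1 higher. Of 10 skeletal fibre markers 7 were tested, *Acta1* was the called one, *Ckm* the most abundant, the sum 1740 to 1955 CPM in WT and 2300 to 2730 CPM in A178D hearts, of which *Acta1* had means of 108 and 671 CPM, and *Myh1*, *Myh2* and *Myh4* were too low to test.

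**Figure D3:**
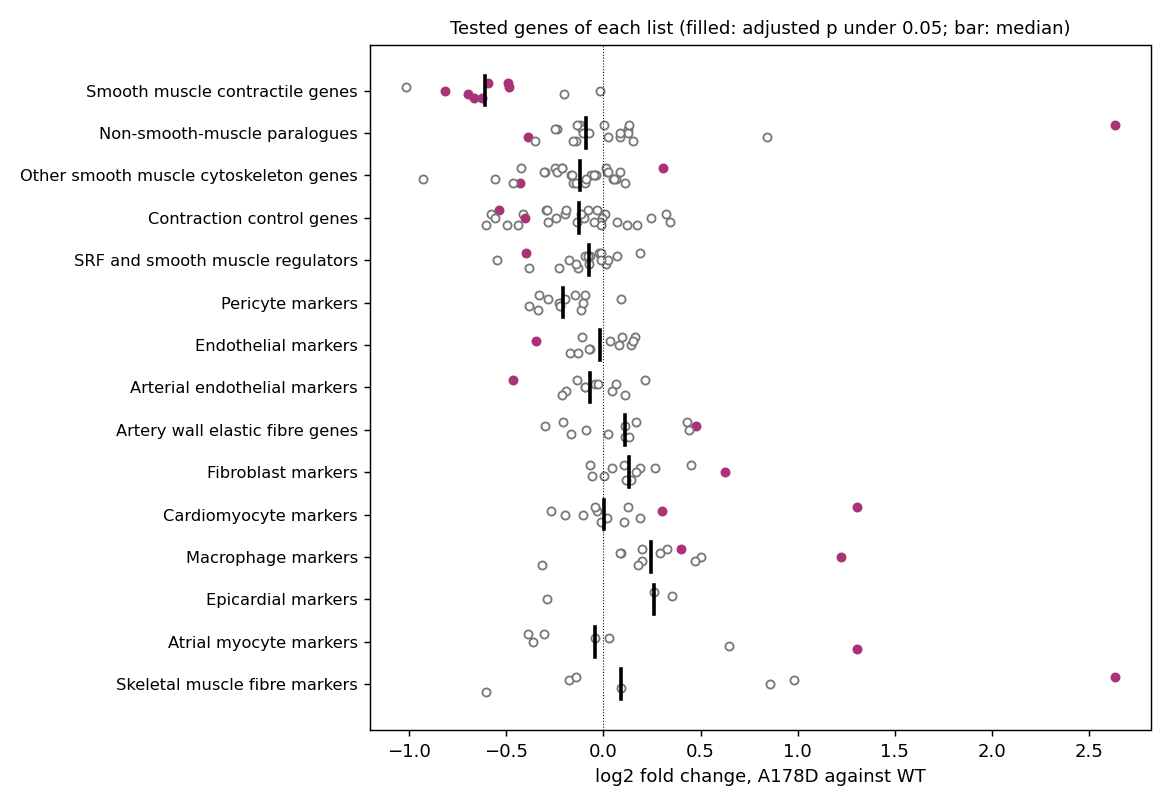
Log2 fold change of A178D against WT (horizontal axis) for every tested gene of each list, with a black bar at the median and filled points for an adjusted p under 0.05. The smooth muscle contractile genes have a median of -0.61, the pericyte markers of -0.21, and the other lists lie between -0.13 and 0.26.

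The promoters of the members are shown for the known elements of smooth muscle genes. The promoter table used here, from RefSeq starts on GRCm38.p6, held a window of 250 bases before to 50 after the start for 6 of the 10 members, *Acta2*, *Cnn1*, *Lmod1*, *Mylk*, *Smtn* and *Myl9*. *Actg2*, *Myh11*, *Tagln* and *Myocd* are not in that table, so their promoters were not examined. A strict CArG box, the site of SRF, with 6 middle letters that are all A or T, was found in 1 of the 6 windows (*Myl9*), and in 1.63% of all 32851 promoter windows. With at most 1 departure among the 6 middle letters, 2 of the 6 windows held one, *Acta2* and *Myl9*, each at 2 places, where 9.98% of all windows did. The box reads the same way on both strands. Both promoters are shown up to the start, 5′ to 3′ on the strand of the gene, with the CArG boxes in capitals. They are at chr19:34255374-34255623 (*Acta2*, minus strand) and chr2:156775214-156775463 (*Myl9*, plus strand), and 217 and 44 of these bases lie in exons of the same gene in GENCODE.
Acta2: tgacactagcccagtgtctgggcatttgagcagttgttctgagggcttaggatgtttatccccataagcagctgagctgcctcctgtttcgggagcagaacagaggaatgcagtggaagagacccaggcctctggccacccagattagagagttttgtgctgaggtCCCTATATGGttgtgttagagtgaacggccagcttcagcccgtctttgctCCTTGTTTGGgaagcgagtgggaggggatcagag
Myl9: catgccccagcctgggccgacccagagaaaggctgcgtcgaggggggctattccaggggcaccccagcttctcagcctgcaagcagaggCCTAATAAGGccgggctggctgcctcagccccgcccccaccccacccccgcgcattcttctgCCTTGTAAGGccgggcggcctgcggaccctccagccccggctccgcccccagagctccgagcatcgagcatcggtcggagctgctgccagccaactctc

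The boxes begin at base 167 and base 217 in *Acta2*, and at base 90 and base 152 in *Myl9*. A match is a description of letters and not a site in use. The *Cnn1* window (chr9:22099003-22099302) held neither this box nor the element below, which says nothing of sequence outside these 300 bases.

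The MCAT element CATTCC, or GGAATG on the other strand, was looked for after the data were seen. It was present in 4 of the 6 windows, *Acta2*, *Lmod1*, *Mylk* and *Smtn*, and in 14.7% of all windows. It does not share letters with the CArG box of *Acta2*. The 40 bases around it are shown with the element in capitals, from chr19:34255497-34255536 (*Acta2*, minus strand), chr1:135324666-135324705 (*Lmod1*, plus strand), chr16:34784775-34784814 (*Mylk*, plus strand) and chr11:3539492-3539531 (*Smtn*, minus strand). The *Mylk* and *Smtn* windows lie inside the gene as GENCODE draws it.
Acta2 MCAT: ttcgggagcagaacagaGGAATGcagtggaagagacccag
Lmod1 MCAT: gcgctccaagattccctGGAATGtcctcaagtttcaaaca
Mylk MCAT: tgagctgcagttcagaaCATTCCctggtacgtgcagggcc
Smtn MCAT: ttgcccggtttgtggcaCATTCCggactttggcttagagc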

How the data were processed

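The authors deposited raw counts per gene from stranded poly(A) libraries sequenced from both ends. Per the submitters' processing notes, bcl2fastq 2.18.0.12, HISAT2 2.1.0, SAMtools 1.6 and DESeq2 1.26.0 were used with build GRCm38; the counting program is not given in the sources used here. A second deposited table, of values scaled by size factors, was not used. Identifiers were named from GENCODE release M21. Of 21257 entries, 442 in 219 sets with 30 or more counts had identical counts, and each set was kept once. Below 30 counts, 107 repeats of an identifier with its counts were removed, which left 20927. Odd numbers made up 17.6 to 20.3% of counts from 1 to 20 in a library, so halved counts were an alternative.

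Differential expression was computed with edgeR 4.0.16 in R 4.3.3 (TMM, glmQLFit, glmQLFTest, no covariate) on genes that reached 10 counts in 3 or more libraries, with Benjamini-Hochberg adjustment over 13894 genes. Each standard error (SE) is the size of the log2 fold change divided by the square root of the F statistic of its quasi-likelihood test. Alternatives used DESeq2 1.42.0, limma 3.58.1 (voom), other filters, the replicate number as a block, offsets from mgcv 1.9.3 and fits without each library. The code was tested on simulated data. Members and lists were chosen with earlier results of these data known. Named genes are all members, their closest paralogues, called genes of the other lists, the most abundant and undetected genes of each marker list, and up to 4 abundant genes per pathway list; exceptions are stated, and 1 abundant gene is not reported here.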

Additional observations from a re-analysis of the deposited data

Results flagged for a closer look

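Among 66 groups of 4 A178D values, 1 for each member and named gene, 2 had a heart far from the other 3, and chance alone flags about 1 in 20. *Cnn2*, a calponin not specific to smooth muscle, was at 68.7 CPM in A178D replicate 4 and at 51.8 to 54.0 CPM in the other A178D hearts. *Col3a1* was at 324 CPM in A178D replicate 2 and at 303 to 306 CPM in the others. None of the 10 members was flagged, and groups of 3 WT values were not examined.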

How the results depend on the processing

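The median log2 fold change of the 10 members stayed between -0.64 and -0.52 in every alternative, between -0.64 and -0.54 without each heart in turn. The number of members called lower was 6 to 8 with DESeq2, DESeq2's size factors, limma-voom, other filters, the table as deposited, halved counts and offsets for length and GC content, 2 at an adjusted p under 0.01, and 2 to 6 without each heart. Over all genes, 182 were called lower and 145 higher. These counts were 380 and 306 with DESeq2, 284 and 206 with the offsets, 40 and 24 at an adjusted p under 0.01, and 31 to 238 and 22 to 215 without each heart. Leaving out both WT replicate 1 and A178D replicate 4, chosen after seeing the data, gave 407 and 353, with 5 members and a median of -0.52. The cause was not tested.

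With the replicate block 5 members were called lower, with 147 genes lower and 124 higher over all genes, and *Myh10* changed sign to -0.02. Hearts of the same number did not deviate together, with correlations of 0.00313, -0.0402 and -0.0424, so the numbers were not taken to pair hearts.

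Genes that changed sign were all uncalled. With the offsets these were *Myocd* (0.01), *Tpm1* (-0.01), *Ppp1cb* (0.04), *Tead1* (0.09) and *Mef2c* (0.00). Without both libraries they were *Myocd* (0.02), *Tpm1* (-0.05), *Des* (-0.01), *Ppp1cb* (0.04), *Tead1* (0.08), *Mef2c* (0.02) and *Ckm* (-0.04). Without each heart in turn the values ran from -0.06 to 0.05 for *Myocd*, -0.01 to 0.28 for *Actb*, -0.01 to 0.27 for *Actg1*, -0.06 to 0.06 for *Myh10*, -0.04 to 0.09 for *Mrtfa*, -0.03 to 0.06 for *Tpm1*, -0.08 to 0.03 for *Ppp1cb*, -0.04 to 0.15 for *Srf*, -0.07 to 0.06 for *Tead1* and -0.03 to 0.12 for *Nrp1*. Of 170 alternative values of the members, 133 kept their sign and their side of the threshold, 31 lost the call, 2 gained one and 4 changed sign. With the longest transcript as length, 5 of the 10 WT levels per kb moved beyond their SD. Depth limits *Actg2* most, at 21 to 116 counts per library.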
